A study of Arabidopsis thaliana with 27 samples.

Results

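The plastid genome of Arabidopsis thaliana is a small circular genome inside the chloroplast, a remnant of the cyanobacterium from which the organelle descends. It encodes core subunits of the photosynthetic complexes and part of the machinery that expresses them, while most chloroplast proteins come from nuclear genes. The transcripts described here are those measured by a probe set annotated with exactly 1 gene symbol whose RefSeq locus tag belongs to the plastid genome. Of 78 plastid gene symbols, 69 had such a probe set, among 22746 non-control probe sets in all. Of these 69 transcripts, 45 encode photosynthesis proteins, 20 encode gene-expression proteins and 4 have other roles (accD, clpP, cemA and ccsA). The symbols ndhB, rpl2, rpl23, rps12, rps7, ycf1 and ycf2 sit on probe sets shared by several symbols, and these 7 were not analysed here. Copies of plastid sequence also lie in the nuclear and mitochondrial genomes of this plant, and signal from them cannot be told apart from signal of the plastid transcript.

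RNA was hybridised to 27 ATH1 arrays, 3 for each of 9 groups. Leaf groups came from rosette leaves 5 to 8 of dcl4-2, rdr6-15 and dcl1-7 mutants and of wild-type Col-0. Inflorescence groups held flowers of stages 1 to 12 and comprised dcl4-2 and rdr6-15, compared with a first wild-type group (Col-0 set A), and dcl1-7, compared with a second wild-type group (Col-0 set B). Each replicate pooled at least 9 plants, so an array reports a mixture of plants and cell types. DCL4 and RDR6 act in the trans-acting siRNA pathway, and DCL1 cuts microRNA precursors; dcl1-7 is known as a partial loss-of-function allele. The transcripts of DCL4, RDR6 and DCL1 were not analysed here, so the genotype labels were not checked against their own genes.

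Plastid genes are transcribed by 2 kinds of RNA polymerase, a bacterial-type enzyme with plastid-encoded core subunits (rpoA, rpoB, rpoC1 and rpoC2) and nuclear-encoded phage-type enzymes. Many are transcribed as long units that hold several genes and are then cut, trimmed and edited by nuclear-encoded RNA-binding proteins, so that neighbouring genes can differ in the transcripts that remain. Unlike nuclear messenger RNA, plastid RNA carries no stabilising poly(A) tail; short A-rich tails mark it for decay. The method of priming the labelled RNA is not given in the sources used here, and with an oligo-dT primer the signal of a plastid transcript need not follow its abundance. In these bulk samples, fewer plastid-rich cells and less plastid RNA per cell cannot be told apart.

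The deposited values are log2 values from robust multi-array averaging, and all differences below are on that log2 scale. A level of one probe set cannot be set against the level of another. Members were tested with limma in the fit over all 22746 probe sets, and a transcript is said to have risen or fallen where its Benjamini-Hochberg adjusted p was under 0.05. The submitters describe the 3 replicates as biological ones, and p-values measure the spread between them.

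The organ labels were checked against the few listed marker genes that had a probe set annotated with exactly 1 symbol. These were 2 of 10 inflorescence markers, 2 of 4 anther markers and 1 of 5 leaf markers. AMS and SPL, regulators of anther development, rose in Col-0 set A inflorescences against Col-0 leaves by 3.56 and 1.09, and the carpel regulator SPT rose by 1.48, while the ovule regulator INO differed by 0.28 with an adjusted p of 0.109. RCA, the activase of Rubisco in green tissue, differed by −0.16 with an adjusted p of 0.399. Arrays differed in the mean difference between 3′ and 5′ control probe sets over 6 Arabidopsis control pairs, a measure that grows with RNA degradation or incomplete labelling. It was 1.20 to 1.48 on inflorescence arrays except on dcl4-2 replicate 2 (2.45), Col-0 set B replicate 3 (2.53) and dcl1-7 replicate 3 (2.48), and it was 2.30 to 3.43 on leaf arrays. The 25S rRNA control probe sets also set arrays apart: they read 12.56 and 12.47 on Col-0 set B replicates 1 and 2, 12.25 and 10.15 on dcl1-7 inflorescence replicates 1 and 2, and at most 9.15 on any other array. In leaf, 5S rRNA control probe sets read 6.42 on rdr6-15 replicate 2 and 6.46 and 6.24 on dcl1-7 replicates 2 and 3, against at most 5.65 on the other leaf arrays.

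**Figure D1:**
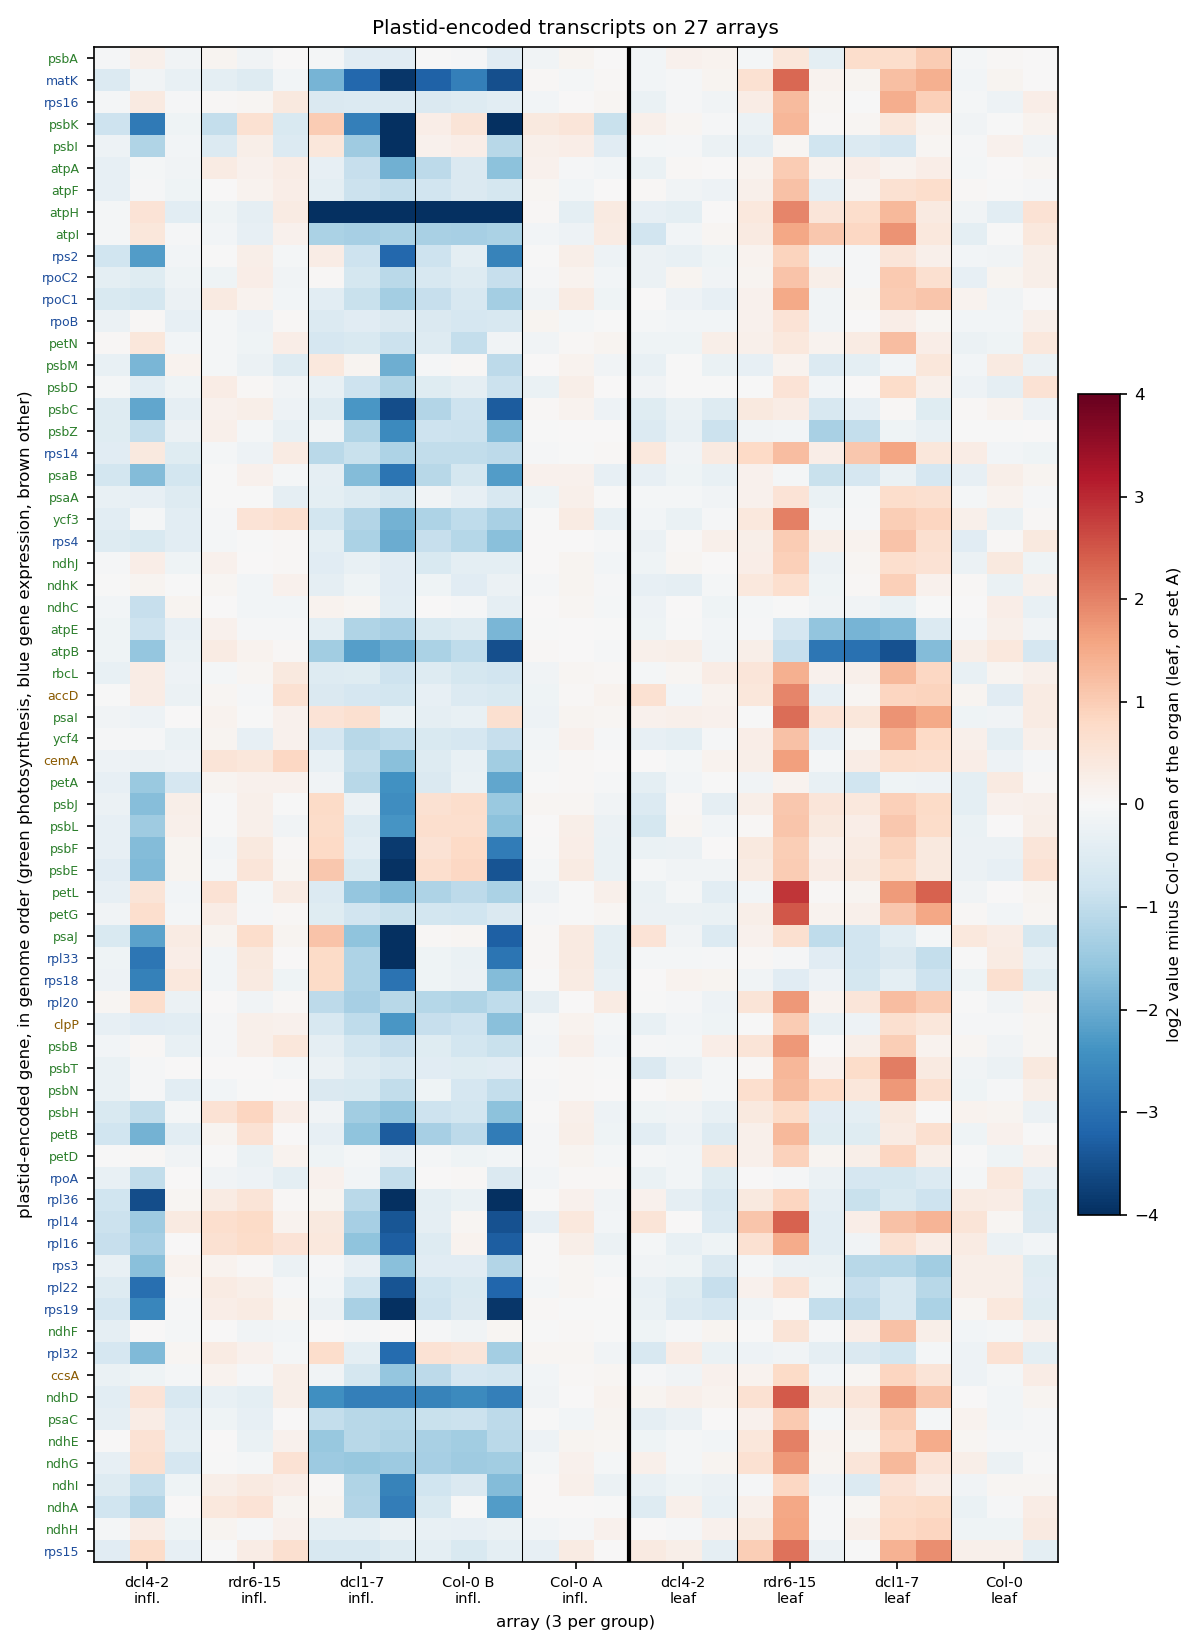
Each row is 1 of the 69 plastid transcripts in genome order and each column 1 of the 27 arrays; colour gives the log2 value minus the Col-0 mean of the same organ (Col-0 set A for inflorescences), with the colour scale ending at ±4. The arrays of Col-0 set B and dcl1-7 inflorescence are low for many transcripts, and single leaf arrays of rdr6-15 and dcl1-7 are high for many.

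In leaves, loss of DCL4 left no plastid transcript past the test. None of the 69 transcripts rose or fell in dcl4-2 leaves by limma, and 0% of all probe sets were called; at an unadjusted p under 0.05, 1 member was lower (rpl22, encoding a large-subunit ribosomal protein, −0.57), against 2.87% of all probe sets in either direction. The members' differences had a median of −0.12, and 18 lay above 0 and 51 below, while over all probe sets 52% lay above 0. The median of the members on each dcl4-2 leaf array, taken as the difference from the Col-0 mean, was −0.17, −0.09 and −0.11. These 3 medians lay below those of the Col-0 leaf arrays, which ran between −0.07 and 0.06. All 3 dcl4-2 values lay below all 3 Col-0 values for 8 members, a state found for 4% of all probe sets, and above them for 1, with 4.93%.

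In rdr6-15 leaves no plastid transcript passed the test either, although 53 of 69 differences lay above 0, with a median of 0.39. Over all probe sets 49.2% lay above 0. By limma 0 members rose or fell, against 0.0176% of all probe sets called, and at an unadjusted p under 0.05 there were 12 members, all higher, against 1.74% of all probe sets higher at that level and 3.4% in either direction. All 3 rdr6-15 values lay above all 3 Col-0 values for 8 members, with 3.78% of all probe sets in that state, and below them for 1 member, with 4.03%. The members' median difference from Col-0 was 0.19, 1.03 and −0.13 on the 3 rdr6-15 arrays, so replicate 2 was high and replicate 3 was not.

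Single transcripts showed how much of this lay on 1 array. petL, a small subunit of the cytochrome b6f complex, read 6.09, 9.04 and 6.24 in rdr6-15 leaves, against 6.04, 6.21 and 6.30 in Col-0 leaves. matK, the plastid intron maturase, read 8.21, 9.90 and 7.75 in rdr6-15 leaves, against 7.49, 7.73 and 7.62 in Col-0 leaves. ndhD, a subunit of the chloroplast NDH complex, read 8.09, 9.94 and 7.86 in rdr6-15 leaves, against 7.48, 7.38 and 7.57 in Col-0 leaves. For matK and ndhD the groups did not overlap, and replicate 2 stood apart for all 3 transcripts. The same array had the high 5S rRNA signal of 6.42. It also had the lowest 3′ minus 5′ difference (2.30) and the highest 25S rRNA signal (6.62) of the leaf arrays. Without that array the members' median difference was 0.02, and the part of these measures was not tested.

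In dcl1-7 leaves plastid transcripts moved in both directions: 2 ATP synthase and several ribosomal protein transcripts fell, while the photosystem II reaction-centre transcript psbA and the ribosomal protein transcript rps14 rose. In all 2 members rose and 7 fell, and 9.42% of all probe sets were called (4.18% higher and 5.24% lower). The members' own share, 9 in 69, is close to that. At an unadjusted p under 0.05 there were 27 members, 17 of them higher, where 23.8% of all probe sets passed. Most members that did not pass lay above 0, so that 51 differences were positive and 18 negative with a median of 0.48. Over all probe sets 52.8% were positive. All 3 dcl1-7 arrays exceeded all 3 Col-0 arrays for 19 members, a state found for 11% of all probe sets.

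The 2 transcripts of the atpB-atpE unit, encoding the beta and epsilon subunits of the ATP synthase, both fell. atpB read 8.96, 8.48 and 10.21 in dcl1-7 leaves, against 12.20, 12.39 and 11.29 in Col-0 leaves, a difference of −2.74 (SE 0.65, adjusted p = 0.0211). atpE read 11.75, 11.83 and 13.06 in dcl1-7 leaves, against 13.55, 13.80 and 13.47 in Col-0 leaves, a difference of −1.39 (SE 0.37, adjusted p = 0.0356). The groups did not overlap for either gene, and dcl1-7 replicate 3 was nearest to Col-0 for both. atpB was also low on some rdr6-15 leaf arrays, at 12.19, 11.05 and 9.05 (difference −1.20, SE 0.65, adjusted p = 1), which did not pass. The other measured ATP synthase transcripts lie in the rps2-atpI-atpH-atpF-atpA unit; atpI differed by 1.02 and atpH by 0.79 in dcl1-7 leaves, and none of the 4 passed the test.

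Of the 7 measured transcripts of the unit that runs from rpl23 to rpoA and encodes ribosomal proteins and the alpha subunit of the plastid polymerase, 4 fell in dcl1-7 leaves. rps3, a small-subunit ribosomal protein, read 9.98, 9.96 and 9.71 in dcl1-7 leaves, against 11.33, 11.34 and 10.61 in Col-0 leaves (difference −1.21, SE 0.19, adjusted p = 0.00254). rps19 fell by 0.98 (adjusted p = 0.0435), rpl22 by 0.88 (adjusted p = 0.0383) and rpoA by 0.64 (adjusted p = 0.0353). rpl36 had a difference of −0.78 without passing the test, and rpl14 and rpl16 of the same unit had differences of 0.94 and 0.26. In the psaJ-rpl33-rps18 unit, rpl33, a large-subunit ribosomal protein, read 8.48, 8.69 and 8.30 in dcl1-7 leaves, against 9.24, 9.59 and 8.95 in Col-0 leaves (difference −0.77, SE 0.17, adjusted p = 0.015), while psaJ (−0.42) and rps18 (−0.64) did not pass.

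The 2 transcripts that rose in dcl1-7 leaves came from different units. psbA, the D1 protein of the photosystem II reaction centre, read 8.75, 8.74 and 9.06 in dcl1-7 leaves, against 7.99, 8.09 and 8.07 in Col-0 leaves (difference 0.80, SE 0.18, adjusted p = 0.0164). rps14, a small-subunit ribosomal protein whose gene follows psaA and psaB, read 7.61, 8.13 and 6.99 in dcl1-7 leaves, against 6.83, 6.43 and 6.35 in Col-0 leaves (difference 1.04, SE 0.29, adjusted p = 0.0467). Neither overlapped between groups. In the same unit psaA differed by 0.43 and psaB by −0.54, and neither passed. rbcL, the large subunit of Rubisco, read 7.83, 8.94 and 8.47 in dcl1-7 leaves, against 7.33, 7.75 and 7.82 in Col-0 leaves, and its difference of 0.78 had an adjusted p of 0.16.

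Arrays and settings bore unequally on these calls. The members' median difference was 0.08, 0.76 and 0.40 on the 3 dcl1-7 leaf arrays, and the 2 higher arrays were those with 5S rRNA signals of 6.46 and 6.24; the part of that signal in the result was not tested. With the 3′ minus 5′ difference as a covariate rps3 (−1.07) and psbA (0.92) were called and the other 7 were not, at differences of −2.21 for atpB, −1.20 for atpE, −0.75 for rpl33 and 0.98 for rps14. With rdr6-15 replicate 2 and dcl1-7 replicates 2 and 3 left out, 1 dcl1-7 array remained, which was taken to vary like the other groups. No member was then called and the members' median was 0.08, but atpB differed by −2.998, atpE by −1.86, rps3 by −1.11 and psbA by 0.70.

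**Figure D2:**
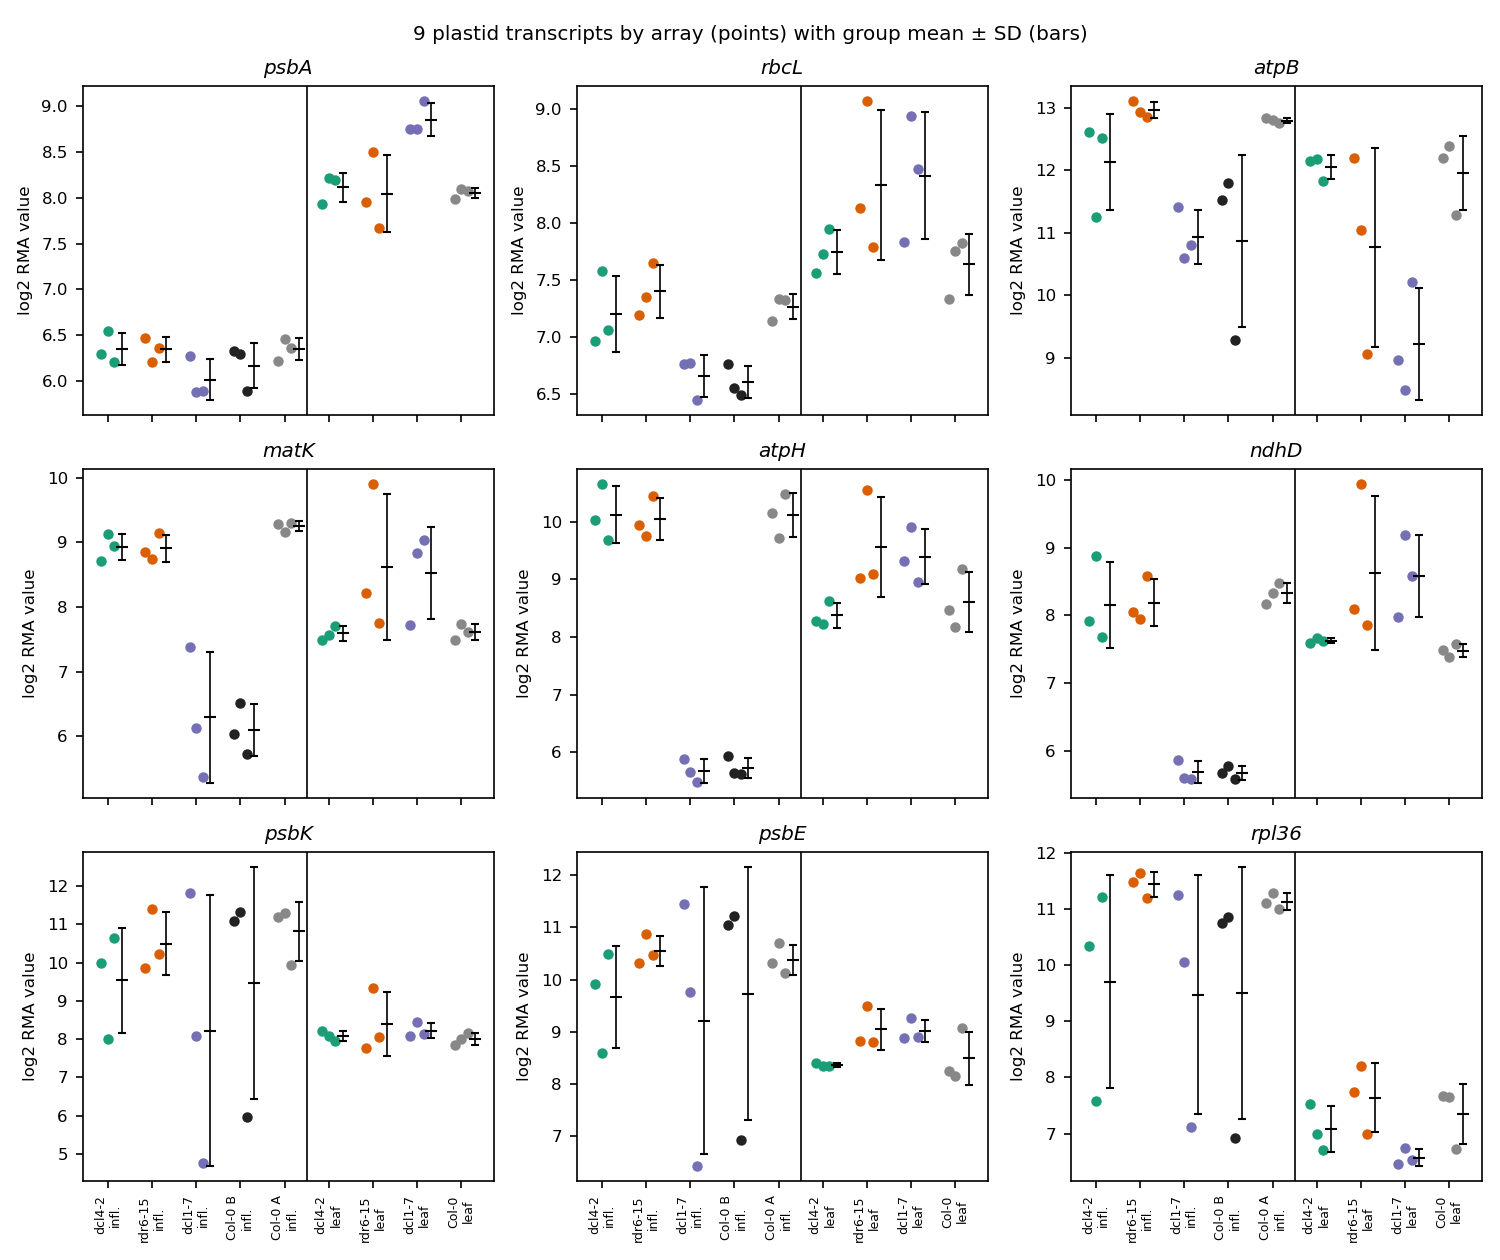
Points are the deposited log2 values of psbA, rbcL, atpB, matK, atpH, ndhD, psbK, psbE and rpl36 on every array, and bars are group means ± SD (n = 3). atpB is lowest in dcl1-7 leaf, atpH and ndhD are below 6 on every array of Col-0 set B and dcl1-7 inflorescence, and psbK, psbE and rpl36 are low on 1 array of dcl4-2 inflorescence, 1 of Col-0 set B and 1 of dcl1-7 inflorescence, with a second low dcl1-7 array for psbK.

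In inflorescences of dcl4-2 plants most plastid transcripts lay below Col-0 set A, and none passed the test. By limma 0 of 69 fell or rose, against 2.08% of all probe sets called, and at an unadjusted p under 0.05, 1 member was lower (psaA, a core protein of photosystem I, −0.37), against 13.7% of all probe sets. The median difference was −0.32, with 13 above 0 and 56 below; 52.2% of all probe sets lay below 0. The members' median was −0.22 over photosynthesis transcripts, with array medians of −0.29, −0.09 and −0.17, and −0.57 over gene-expression transcripts, with array medians of −0.48, −1.15 and −0.04, of which replicate 2 was the lowest. All 3 dcl4-2 values lay below all 3 set A values for 15 members, with 9.86% of all probe sets in that state.

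The most negative differences in dcl4-2 inflorescences came from replicate 2. rpl36, a large-subunit ribosomal protein, read 10.33, 7.58 and 11.21 in dcl4-2, against 11.11, 11.29 and 10.99 in Col-0 set A. psbK, a small subunit of photosystem II, read 9.98, 7.99 and 10.63 in dcl4-2, against 11.20, 11.30 and 9.93 in Col-0 set A. Replicate 2 was the lowest dcl4-2 array for both genes, the other 2 lay within the range of set A for psbK, and replicate 3 was above 2 of the 3 set A arrays for rpl36. Replicate 2 is the array with a 3′ minus 5′ difference of 2.45. With that difference as a covariate the members' median was −0.14. The median over members of the difference from set A was nonetheless negative on every dcl4-2 array, at −0.32, −0.41 and −0.16.

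In rdr6-15 inflorescences no plastid transcript passed the test. By limma 0 members rose or fell, none at an unadjusted p under 0.05, while 8.66% of all probe sets were called and 22% passed the unadjusted level. The median difference was 0.06, with members' medians of 0.02, 0.06 and 0.06 on the 3 arrays against Col-0 set A. All 3 arrays were higher for 8 members, with 21.2% of all probe sets in that state, and lower for 2, with 14.6%. psbA, for example, read 6.47, 6.20 and 6.36 in rdr6-15 inflorescences, against 6.22, 6.46 and 6.36 in Col-0 set A.

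In dcl1-7 inflorescences, too, no plastid transcript passed the test against Col-0 set B, at 0 members called by limma and 0 at an unadjusted p under 0.05, although 23.4% of all probe sets were called and 32.6% passed the unadjusted level. The median difference was −0.07, with 21 above 0 and 48 below, where 48.3% of all probe sets lay above 0. The members' median lay between −0.33 and 0.20 when single arrays were left out, so its direction was not settled. The differences furthest below 0 were those of the psbK-psbI unit, −1.24 for psbK and −1.61 for psbI, both small subunits of photosystem II. psbK read 11.82, 8.09 and 4.75 in dcl1-7 inflorescences, against 11.09, 11.33 and 5.96 in Col-0 set B. The spread within each group was wider than the difference between them: the SD of psbK was 3.54 in dcl1-7 and 3.03 in Col-0 set B. Over the members the median SD was 0.58 in dcl1-7 inflorescences, where that of all probe sets was 0.116, so differences of the members were less precisely measured than those of most probe sets.

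**Figure D3:**
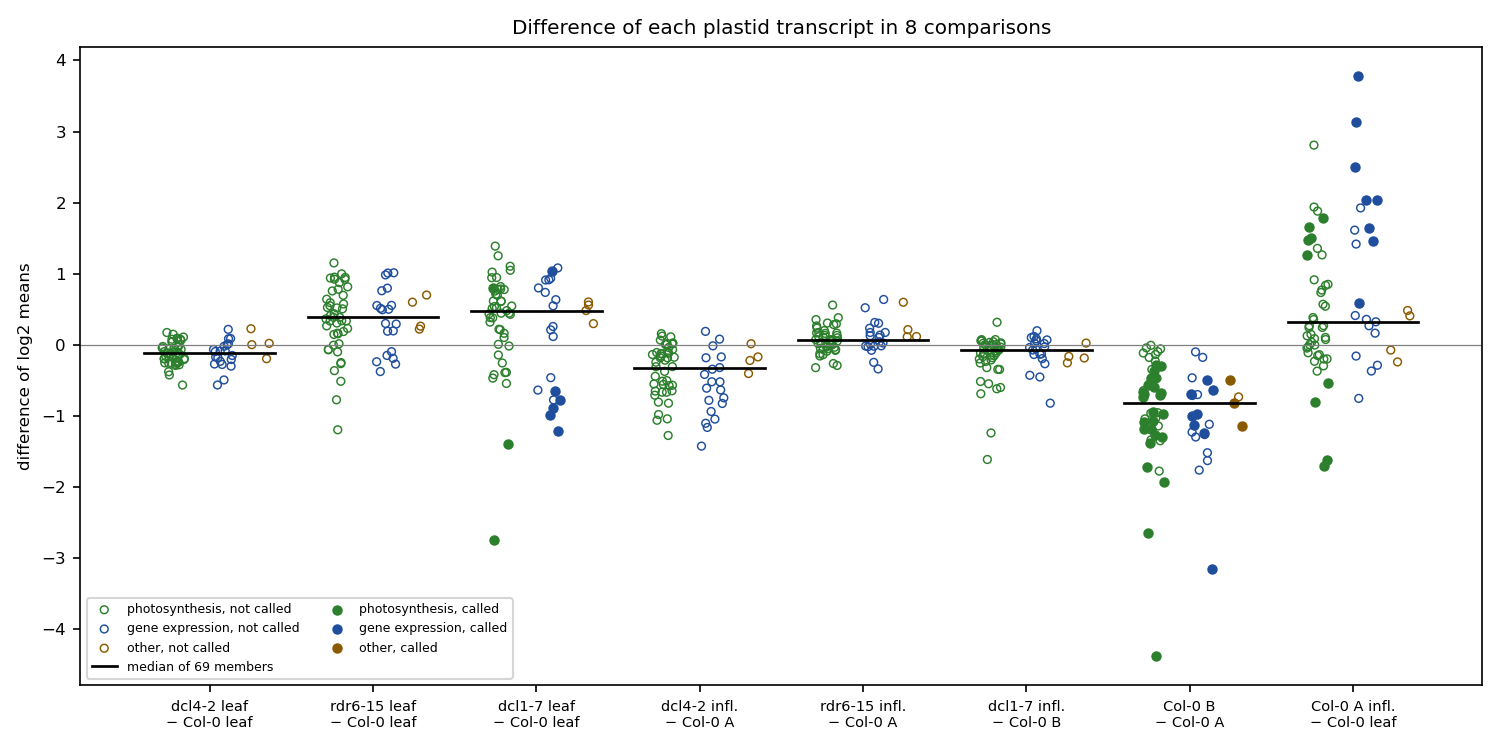
Points are the 69 members' log2 differences in 8 comparisons (first-named group minus second), filled where the adjusted p was under 0.05, with a line at their median. All 69 points of Col-0 set B against Col-0 set A lie below 0, with a median of −0.82, whereas the mutant comparisons have medians between −0.32 and 0.48.

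Between the 2 wild-type inflorescence groups more plastid transcripts were called than between any mutant and its own control. The same held over all probe sets, with 47.7% called here and at most 23.4% between a mutant and its control. All 69 differences of Col-0 set B from Col-0 set A were below 0, with a median of −0.82; array by array, 10, 12 and 2 members lay above the set A mean on replicates 1, 2 and 3, and replicate 3 is the array with a high 3′ minus 5′ difference. In all, 37 transcripts fell and none rose, while 47.7% of all probe sets were called (22.6% higher and 25% lower) and 50.8% lay below 0. The members' own share called, 37 in 69, is close to that of all probe sets. They differed from all probe sets in direction. Of the transcripts that fell, 26 encode photosynthesis proteins, 8 gene-expression proteins and 3 other proteins. For 49 members all 3 set B values lay below all 3 set A values, a state that 29.8% of all probe sets were in, and for 0 members above them, against 27.4%. With arrays centred on their own medians 33 members were called and 2 differences lay above 0, and with quantile normalisation 34 were called and 1 lay above 0.

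A few transcripts differed by more than 2 on the log2 scale, and on these every set B array was low. atpH, the ring subunit of the ATP synthase, read 5.93, 5.63 and 5.62 in Col-0 set B, against 10.14, 9.71 and 10.47 in Col-0 set A (difference −4.38, SE 0.25, adjusted p = 1.44e-08). matK read 6.03, 6.52 and 5.73 in set B, against 9.29, 9.16 and 9.29 in set A (difference −3.16, SE 0.37, adjusted p = 9.41e-06). ndhD read 5.67, 5.78 and 5.58 in set B, against 8.18, 8.34 and 8.48 in set A (difference −2.65, SE 0.25, adjusted p = 1.24e-06). The groups lay far apart for all 3 transcripts, and none of the 3 set B arrays stood out from the others.

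The dcl1-7 inflorescence arrays read like Col-0 set B for these genes, except that matK was higher on replicate 1 than on any set B array. atpH had 5.89, 5.66 and 5.47, ndhD had 5.87, 5.61 and 5.59, and matK had 7.38, 6.12 and 5.37 in dcl1-7 inflorescences. dcl4-2 and rdr6-15 inflorescences read like Col-0 set A, with atpH at 10.03, 10.65 and 9.68 in dcl4-2 and 9.94, 9.75 and 10.44 in rdr6-15. For atpH, wild type and mutants therefore lay together within each of the 2 sets of inflorescences. Set against Col-0 set A, which is not its control, dcl1-7 would have had 40 called members and a median of −1.06. The share of all probe sets called in that comparison was not counted, so the 40 are not read as particular to plastid transcripts.

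By complex, the fall in Col-0 set B took in all 6 ATP synthase transcripts, which besides atpH were atpB (−1.93), atpI (−1.29), atpA (−1.08), atpE (−0.98) and atpF (−0.67). Of 10 NDH transcripts 6 fell, with ndhG (−1.38) and ndhE (−1.27) after ndhD, and of 6 cytochrome b6f transcripts 4 fell, with petB at −1.72 and petL at −1.18. Of 15 photosystem II transcripts 5 fell, from psbH (−1.07) to psbT (−0.47), and of 5 photosystem I transcripts psaC (−0.94) and psaA (−0.37) fell. Over all probe sets 25% fell in this comparison, so the photosystem counts are not read as particular to these complexes. Both photosystem I assembly factors fell, ycf3 by 1.19 and ycf4 by 0.73. rbcL read 6.76, 6.56 and 6.49 in Col-0 set B, against 7.14, 7.33 and 7.32 in Col-0 set A, with no overlap (difference −0.66, SE 0.16, adjusted p = 0.00354). psbA did not pass, at −0.18.

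Among gene-expression transcripts, those of the rpoB-rpoC1-rpoC2 unit all fell, by 0.63, 0.97 and 0.69. These 3 encode the beta-type subunits of the plastid polymerase; rpoA, its alpha subunit, differed by −0.18 and did not pass. Of 8 small-subunit ribosomal transcripts 3 fell (rps4 by 1.24, rps16 by 0.50 and rps14, which read 5.20, 5.19 and 5.13 in Col-0 set B, against 6.11, 6.16 and 6.23 in Col-0 set A), and of 7 large-subunit transcripts 1 fell (rpl20, −1.12). With 25% of all probe sets lower, these counts are not read as particular to ribosomal transcripts. None of the 7 transcripts from rpl23 to rpoA and none of the 4 of the psbE-psbF-psbL-psbJ unit was called, although differences in the first of these units reached −1.76 for rps19. The catalytic protease subunit clpP fell by 1.14, the cytochrome assembly gene ccsA by 0.82 and the acetyl-CoA carboxylase subunit accD by 0.50.

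Other measures also differed between these 2 wild-type groups. The 25S rRNA signal was 12.56, 12.47 and 7.68 in Col-0 set B, against 8.02 to 8.43 in Col-0 set A, and the 5S rRNA signal was 4.49 to 4.68 in set B, against 5.32 to 5.71 in set A. The carpel regulator SPT and the ovule regulator INO rose in set B by 1.19 and 0.73. INO had not passed the test between organs, so it is not read as an inflorescence marker here. The anther marker SPL fell by 0.59, and AMS differed by −0.60 without passing. The part of these measures in the plastid differences was not tested, and any difference in how the 2 sets were grown or processed cannot be told apart from it.

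**Figure D4:**
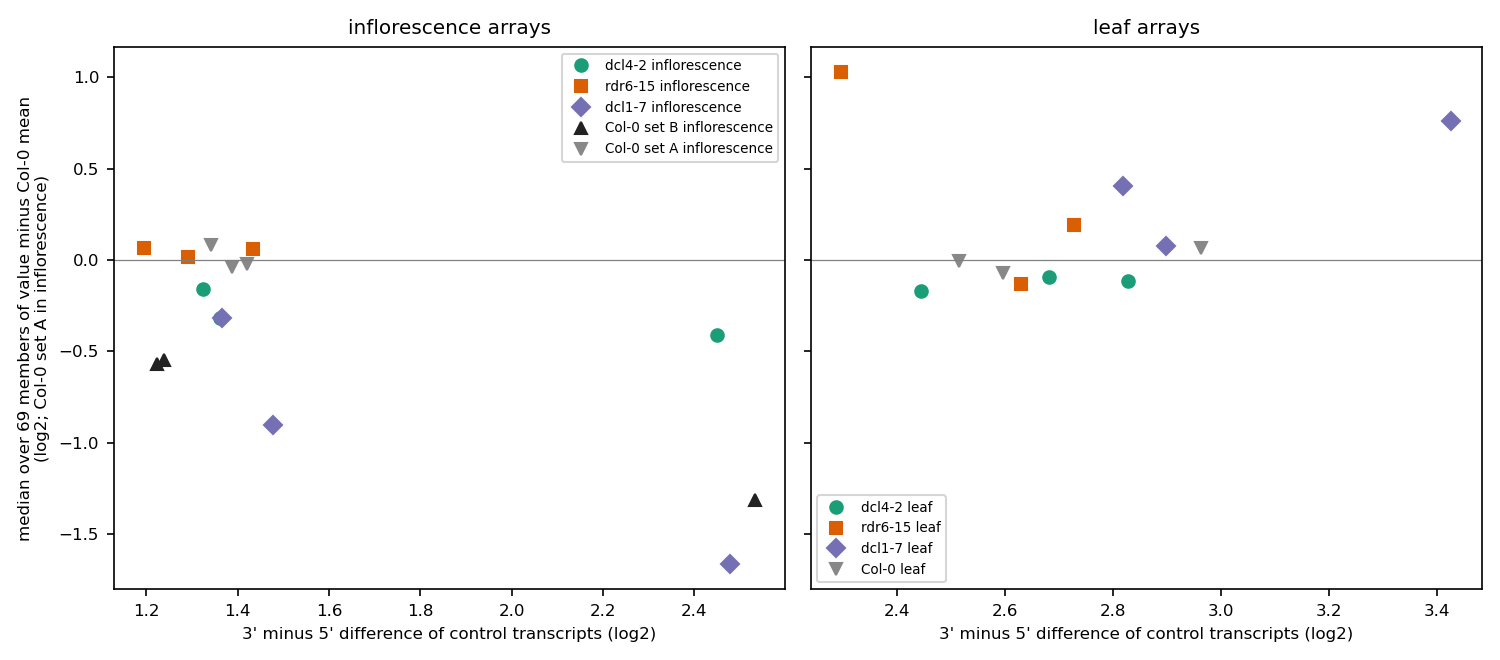
Each point is 1 array: the x axis gives its mean 3′ minus 5′ difference over 6 control pairs (log2) and the y axis the median over the 69 members of the log2 value minus the Col-0 mean of the organ (Col-0 set A for inflorescences). The 3 inflorescence arrays at 2.45 to 2.53 have medians of −0.41, −1.31 and −1.67, the other arrays of Col-0 set B and dcl1-7 lie between −0.32 and −0.90 at a low 3′ minus 5′ difference, and leaf arrays lie at 2.30 to 3.43 with medians from −0.17 to 1.03.

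A second pattern among inflorescence arrays moved with the 3′ minus 5′ measure. With group in the model, 37 members fell and 1 rose with that difference in inflorescences, against 38% of all probe sets called (22.3% higher and 15.7% lower). The median slope over members was −0.47 per unit; it was −0.20 over photosynthesis transcripts, of which 21 fell and 1 rose, and −0.88 over gene-expression transcripts, of which 14 of 20 fell. In leaves no member was called by limma, with 0% of all probe sets called and 3 members at an unadjusted p under 0.05, where 6.29% of all probe sets passed that level. Without dcl4-2 replicate 2, Col-0 set B replicate 3 and dcl1-7 replicate 3 the difference spans only 1.20 to 1.48, and slopes were not smaller but less precise, at −9.17 for psbK (SE 4.09), −3.74 for rpl36 (SE 1.39) and −4.19 for psbE (SE 1.83). No member was then called by limma, and 29 passed an unadjusted p under 0.05. The share of all probe sets at that unadjusted level was not counted in this fit. With all inflorescence arrays it was 47.1%, so the 29 are not read as particular to plastid transcripts.

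psbK had the lowest slope, −3.77 per unit (SE 0.56, adjusted p = 0.000205). Its values were 7.99 on the dcl4-2 array with the high 3′ minus 5′ difference, against 9.98 and 10.63 on the others of that group, and 5.96 on that of Col-0 set B, against 11.09 and 11.33. In dcl1-7 it was 4.75 on that array, but also 8.09 on replicate 2, whose 3′ minus 5′ difference was 1.48, against 11.82 on replicate 1. rpl36 had a slope of −3.06 (SE 0.16, adjusted p = 1.9e-07), and read 7.12 on the dcl1-7 array with the high difference, against 11.25 and 10.05 on the others of that group. psbE, the alpha subunit of cytochrome b559, read 8.60 against 9.91 and 10.49 in dcl4-2, 6.94 against 11.05 and 11.21 in Col-0 set B, and 6.43 against 11.45 and 9.77 in dcl1-7 (slope −2.90, SE 0.34, adjusted p = 3.76e-05). In each group the array with the high 3′ minus 5′ difference was thus the lowest for these genes. These arrays were also the lowest of their group for 25S rRNA, at 6.29 in dcl4-2, 7.68 in Col-0 set B and 6.98 in dcl1-7, and the part of either measure was not tested.

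By transcription unit, all 7 transcripts of the unit from rpl23 to rpoA fell, with a median slope of −2.23, as did all 4 of psbE-psbF-psbL-psbJ, all 3 of psaJ-rpl33-rps18, all 3 of psbD-psbC-psbZ and both of psbK-psbI. By complex, 6 of 7 large-subunit, 5 of 8 small-subunit, 3 of 4 polymerase, 11 of 15 photosystem II, 3 of 6 ATP synthase, 2 of 6 cytochrome b6f, 2 of 5 photosystem I and 3 of 10 NDH transcripts fell. Over all probe sets 15.7% fell. The counts for cytochrome b6f, photosystem I and NDH are therefore not read as particular to these complexes. Within some other units the members differed: rps2 had a slope of −1.92 and its neighbours atpI, atpH and atpF had 0.19, 0.12 and −0.04, none of which passed. ndhA (−1.45) and ndhI (−1.07) fell while ndhE of the same unit rose (0.34, SE 0.12, adjusted p = 0.0343). rbcL (0.03), petL (−0.02) and psbA (−0.11) did not pass.

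The difference of Col-0 set B from Col-0 set A and the slope on the 3′ minus 5′ difference come from the same 15 arrays and are not independent, so they are given side by side. atpH had a difference of −4.38 and a slope of 0.12, matK −3.16 and −0.46, and ndhD −2.65 and 0.23, and none of these 3 slopes passed. psbK had a difference of −1.35 and a slope of −3.77, rpl36 −1.63 and −3.06, and psbE −0.64 and −2.90, and none of these 3 differences passed. For atpB (−1.93 and −1.18), petB (−1.72 and −1.52) and clpP (−1.14 and −0.67) both passed. Without the 3 arrays of high 3′ minus 5′ difference, Col-0 set B differed by −4.32 for atpH, −2.98 for matK and −2.61 for ndhD, but by −0.34 for rpl36 and 0.40 for psbK, and neither of these 2 passed. In that fit 42 members fell and 1 rose (psbJ), with a median of −0.55. The share of all probe sets called was not counted there, and with all 15 inflorescence arrays it was 47.7%.

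**Figure D5:**
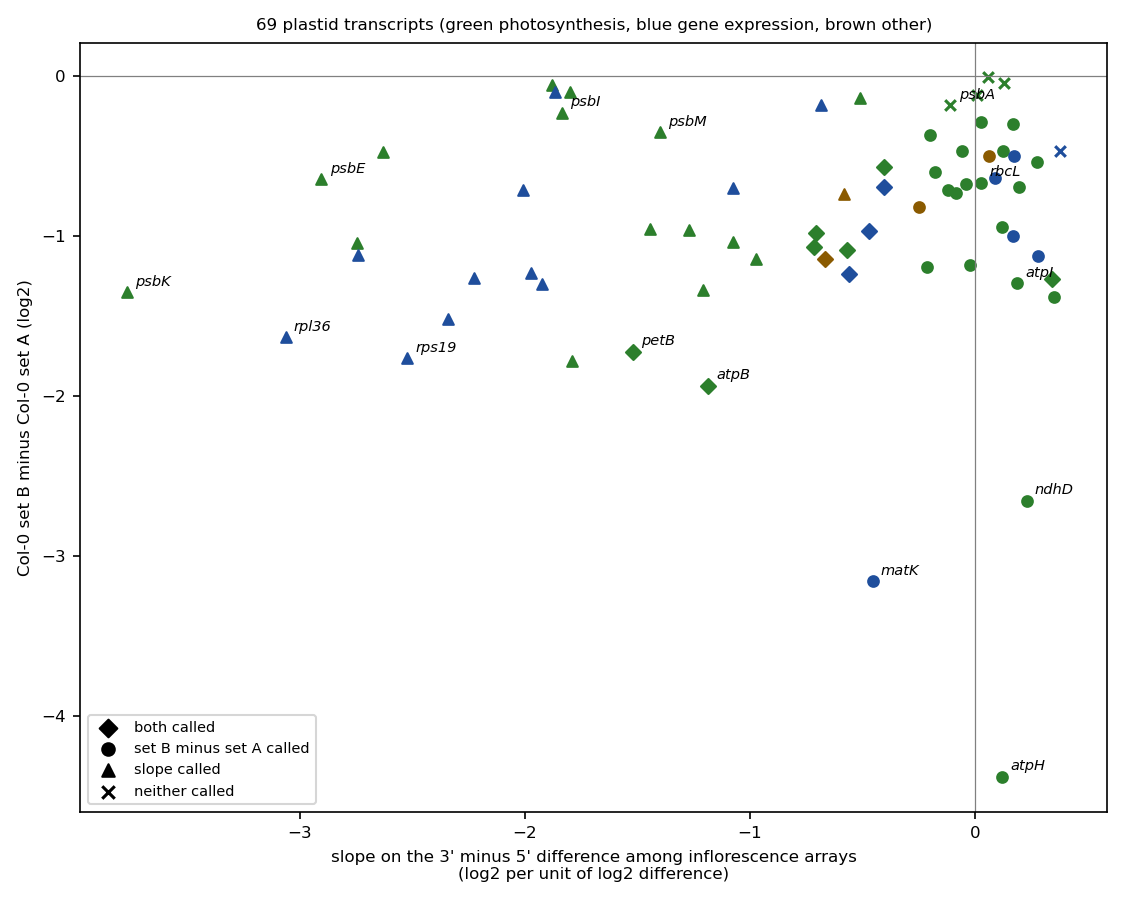
Each point is 1 of the 69 members. The x axis gives its slope on the 3′ minus 5′ difference in inflorescences (log2 per unit). The y axis gives its log2 difference of Col-0 set B from Col-0 set A. Markers show members called in both, in one or in neither, and both axes use the same arrays. atpH, matK and ndhD lie at the bottom at slopes between −0.46 and 0.23, and psbK, rpl36 and psbE lie far left without a called difference.

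Between organs, several ribosomal protein transcripts rose in Col-0 set A inflorescences against Col-0 leaves, and psbA fell. In all, 13 members rose and 4 fell, against 60% of all probe sets called (31.5% higher and 28.5% lower). The median difference was 0.32, at 1.00 over gene-expression and 0.24 over photosynthesis transcripts; 48 members lay above 0, where 47.9% of all probe sets did. All 3 inflorescence values exceeded all 3 leaf values for 33 members, with 35.7% of all probe sets in that state, and lay below them for 8, with 35.4%. Whether both organs were normalised together is not given in the sources used here, and the leaf arrays had 3′ minus 5′ differences of 2.30 or more, so organ and RNA quality cannot be told apart.

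Of the 7 transcripts from rpl23 to rpoA, 6 rose in inflorescences. rpl36 read 11.11, 11.29 and 10.99 in Col-0 set A, against 7.66, 7.65 and 6.73 in Col-0 leaves (difference 3.78, SE 0.93, adjusted p = 0.0014). rpl22 read 11.83, 12.00 and 11.93 in Col-0 set A, against 9.02, 9.01 and 8.31 in Col-0 leaves (difference 3.14, SE 0.72, adjusted p = 0.000694). The groups lay over 2 log2 units apart on these 2 transcripts. rps19 rose by 2.50, rpl14 by 2.04, rps3 by 1.46 and rpoA by 0.59, while rpl16 (1.61) had an adjusted p of 0.059. Outside that unit rps2 rose by 2.04, petB by 1.79, psbJ by 1.66, matK by 1.64, atpH by 1.50, psbC by 1.48 and psaB by 1.26.

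psbA read 6.22, 6.46 and 6.36 in Col-0 set A, against 7.99, 8.09 and 8.07 in Col-0 leaves, and fell by 1.70 (SE 0.17, adjusted p = 7.41e-09). ndhJ, an NDH subunit, read 5.92, 6.01 and 5.79 in Col-0 set A, against 7.30, 7.92 and 7.36 in Col-0 leaves (difference −1.62, SE 0.21, adjusted p = 6.83e-07). Both were lower on every inflorescence array than on every leaf array. petN, a small cytochrome b6f subunit, fell by 0.81 and ndhK, the neighbour of ndhJ, by 0.54. rbcL differed by −0.37 with an adjusted p of 0.231.

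The response to dcl1-7 differed between organs for 4 members, with 1 effect higher and 3 lower in inflorescences than in leaves, while 22.3% of all probe sets were called (12.6% higher and 9.64% lower). The effect on atpB was 0.07 in inflorescences and −2.74 in leaves, a difference of 2.81 (SE 0.89, adjusted p = 0.0255). The effect on psbA was −0.15 in inflorescences and 0.80 in leaves, a difference of −0.95 (SE 0.23, adjusted p = 0.00455). The difference was −1.11 for rps14 (SE 0.37, adjusted p = 0.0337) and −1.06 for psbN, a protein required for assembly of photosystem II (SE 0.33, adjusted p = 0.0243). The control of the inflorescence effect is Col-0 set B, where atpB was itself lower than in set A. Without the 3 arrays of high 3′ minus 5′ difference, atpB (2.09, adjusted p = 0.0819) and rps14 (−1.05, adjusted p = 0.0573) no longer passed, with differences close to those with all arrays for rps14 and smaller for atpB. The effects of dcl4-2 and rdr6-15 differed between organs for 0 members by limma, against 0.224% and 2.45% of all probe sets called; at an unadjusted p under 0.05 there were 0 and 5 members, against 6.92% and 13.4% of all probe sets.

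Transcripts that work with plastid genes but are encoded elsewhere are given for the same comparisons. The 9 nuclear subunits of the photosynthetic complexes and the 11 mitochondrial transcripts were taken from probe sets annotated with exactly 1 symbol. These 2 lists are therefore not complete sets of such genes. Of 20 nuclear factors of plastid RNA processing and decay 4 were measured, and of 23 nuclear partners in plastid gene expression 1 was measured. In dcl1-7 leaves the minor antenna transcript LHCB4.3 fell by 1.19 and no other of the 9 subunits was called. The mitochondrial nad4 and nad9, subunits of respiratory complex I, rose by 0.57 and 0.48. All 11 mitochondrial differences were above 0 with a median of 0.26. Over all probe sets 4.18% rose and 5.24% fell in dcl1-7 leaves, and 52.8% of differences lay above 0. In Col-0 set B against Col-0 set A, 3 of the 9 photosynthesis subunits rose and 2 fell, with LHCB4.3 at −1.57 and PSB27, a photosystem II assembly protein, at 0.69. Of the 4 RNA-processing transcripts, AT5G46580 fell by 1.60 and CAF1, a group II intron splicing factor, by 1.29. AT5G15700, the phage-type polymerase shared by plastids and mitochondria, fell by 0.36. Among the 11 mitochondrial transcripts 4 rose and 0 fell in set B, with a median of 0.09, where 22.6% of all probe sets rose and 25% fell.

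With the 3′ minus 5′ difference in inflorescences, for which 22.3% of all probe sets rose and 15.7% fell, 1 of the 11 mitochondrial transcripts rose and 3 fell, the lowest being cox1 at −0.30 per unit, and 2 of the 9 nuclear subunits fell. Of the 4 RNA-processing transcripts 3 rose with it, by 0.45 for AT5G42310, 0.36 for CAF1 and 0.29 for AT5G46580. Between organs all 9 listed nuclear photosynthesis subunits fell in Col-0 set A inflorescences against Col-0 leaves, with a median of −0.72. All 4 measured RNA-processing transcripts also fell, with a median of −0.61, where 28.5% of all probe sets fell. The median of the 45 plastid photosynthesis transcripts in that comparison was 0.24.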

How the data were processed

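Per the submitters' processing notes, the authors made the deposited log2 expression values by robust multi-array averaging (RMA); whether all 27 arrays were normalised together is not given in the sources used here. Of 22810 probe sets, 64 controls were left out of the tests. Probe sets were named by the platform annotation and classed by RefSeq locus tags; mitochondrial transcripts were matched by symbol. limma 3.58.1 in R 4.3.3 (lmFit, eBayes) was fitted to 12 leaf arrays, to 15 inflorescence arrays, and to all 27 for organ comparisons and differences of effects between organs, with Benjamini-Hochberg adjustment over 22746 probe sets and a threshold of 0.05. The slope on the 3′ minus 5′ difference was fitted with group in the model. Named members were up to 6 called in each direction by size plus a fixed set; further called members were named by complex or unit after their values were seen. Members, lists and tests were chosen with earlier results of these data known. The number of arrays limits the precision. On simulated data with 1 log2 change, 75% to 80.5% of changed probe sets were recovered in the leaf comparisons and 89.5% to 96.5% in inflorescence and organ comparisons. For slopes 28% were recovered in leaves and 96.5% in inflorescences. The changed probe sets were drawn at random from all 22746, with noise independent between probe sets. The members had a higher median SD than all probe sets in every group, and recovery was not simulated for them, so these shares do not give theirs. Alternatives were array centring, quantile normalisation, array weights, filters, covariates and leaving out arrays.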

Additional observations from a re-analysis of the deposited data

Results flagged for a closer look

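In all, 4 members were picked out because the effect of dcl1-7 differed between organs in the limma fit over all 27 arrays: psbN (−1.06), rps14 (−1.11), atpB (2.81) and psbA (−0.95), each given as the effect in inflorescences minus the effect in leaves on the log2 scale. Of 17 alternative settings, the call was kept in 17 for psbA, 13 for psbN, 11 for atpB and 9 for rps14.

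One Arabidopsis control probe set outside the tests was high in a single group: it read 11.18, 10.38 and 10.71 in rdr6-15 leaves (mean 10.76), and between 4.79 and 5.44 on all other arrays. It was not high in rdr6-15 inflorescences.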

How the results depend on the processing

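No paired analysis was possible because the labels give no replicate numbers shared between groups. Alternative values were counted over the comparisons between groups, the effects between organs and the slopes. Of these values, 270 stayed within 1.5 times the main count or 1 SD of the main median and 39 moved further. Counts that stayed at 0 are among the 270. With array weights the number of called members was 14 in dcl1-7 leaves, 1 each in dcl4-2, rdr6-15 and dcl1-7 inflorescences, 28 between organs, 1 for the rdr6-15 and 16 for the dcl1-7 effect between organs. In dcl1-7 leaves it was 14 in the fit over all 27 arrays, 4 with only the 2 groups in the fit and 2 with the 3′ minus 5′ covariate; without rdr6-15 leaf replicate 2 and dcl1-7 leaf replicates 2 and 3 it was 0 and the median 0.08. Leaving out single replicates gave 1 to 11 calls there: 1 without Col-0 leaf replicate 1 or without replicate 2, 4 without dcl1-7 replicate 2 or without replicate 3. With only the 2 groups in the fit, 1 member was called in dcl4-2 inflorescences, 4 in rdr6-15 inflorescences and 38 between organs. The dcl4-2 inflorescence median was −0.43 without the 25% of probe sets of lowest mean and −0.14 with the covariate; the rdr6-15 inflorescence median was 0 with the covariate and 0.04 to 0.13 leaving out single replicates. Without the 3 inflorescence arrays of high 3′ minus 5′ difference, chosen after seeing the data, 1 member was called in rdr6-15 and 2 in dcl1-7 inflorescences, 30 between organs and 0 for the inflorescence slope, and the dcl1-7 difference of atpB was −0.65. With Col-0 set A as control, dcl1-7 inflorescences had 40 calls and a median of −1.06. There ndhD (−2.64), psbB (−0.67), psbT (−0.46), rpoC1 (−0.90) and rpoB (−0.53) had the opposite sign to the difference from set B. So did rps4 (−1.22), atpB (−1.86), rbcL (−0.61), atpA (−1.06) and matK (−2.96). None of these differences from set B had passed the test, so the signs are not read as a reversal. The organ median was 0.16 with arrays centred, where the median of all probe sets was −0.19. Leaving out single replicates gave 0 to 1 calls in dcl1-7 inflorescences (median −0.33 to 0.20), 11 to 15 between organs (median 0.23 to 0.39), 27 to 35 in Col-0 set B and 1 to 12 for the dcl1-7 effect; the rdr6-15 leaf median was 0.02 to 0.62. The cause of these shifts was not tested, and the share of all probe sets called was not counted under these alternatives. In dcl1-7 leaves rps3 was called in 13 of 14 alternatives, psbA in 10, atpB in 9, rpl33 in 7, atpE in 6, rpoA, rps19 and rps14 in 5 each and rpl22 in 4. In Col-0 set B atpH, matK, ndhD, ndhG and psaC were called in all 14, petB and accD in 9 of 14, psbD in 6 of 14, psaA in 5 of 14 and ndhH in 5 of 13.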

Other observations

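Plastid transcripts varied more between replicates than other probe sets did. The median within-group SD of the 69 members was 0.158 in dcl4-2 leaves, 0.597 in rdr6-15 leaves, 0.419 in dcl1-7 leaves and 0.267 in Col-0 leaves, where that of all probe sets was 0.123, 0.151, 0.182 and 0.135. In inflorescences it was 0.448 in dcl4-2, 0.204 in rdr6-15, 0.58 in dcl1-7, 0.146 in Col-0 set A and 0.390 in Col-0 set B, where that of all probe sets was 0.123, 0.0827, 0.116, 0.0707 and 0.110. LHCB4.3, a nuclear antenna transcript, rose by 0.81 in dcl1-7 inflorescences against Col-0 set B and fell by 1.19 in dcl1-7 leaves against Col-0 leaves. AT5G46580, a plastid RNA-binding protein, rose by 0.77 in dcl1-7 inflorescences against Col-0 set B. The direction in inflorescences depends on the wild-type group. LHCB4.3 had a mean of 10.77 in dcl1-7 inflorescences, 9.96 in Col-0 set B and 11.53 in Col-0 set A. AT5G46580 had means of 8.31, 7.54 and 9.15 in the same groups.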
